A study of Mus musculus with 8 samples.

Results

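The 9 genes described here set the absorption and secretion of sodium and chloride by an epithelium: *Scnn1a*, *Scnn1b*, *Scnn1g*, *Prss8*, *Sgk1*, *Cftr*, *Slc26a4*, *Slc12a2* and *Atp1b1*. They were taken by symbol from the 52325 genes of the count table by a rule that names them, and they were proposed with earlier results of these data known. All 9 passed the filter on low counts, as did 18174 genes in all. Endometrium had been laser-captured from frozen uterine sections of female mice synchronised in metestrus, 4 with the *Thra1PV/+* genotype and 4 wild-type (WT). *Thra1PV/+* mice carry, as a germline knock-in and therefore in every tissue, 1 allele of the thyroid hormone receptor gene *Thra* with the PV mutation, a frameshift that makes receptor TRα1 a dominant negative. WT mice carry no such allele, and neither the ages of these mice nor their strain are given in the sources used here. Polyadenylated RNA of each mouse was sequenced, and estimated counts summed to between 48791602 and 59818887 per library, so that 1 CPM, the unit used below for counts relative to library size, corresponds to between 48.8 and 59.8 counts.

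Sodium enters an absorptive epithelial cell from the lumen through the epithelial sodium channel, ENaC, a complex of alpha, beta and gamma subunits, and leaves it through the sodium pump of the basolateral membrane, with water following. In secretion, a basolateral cotransporter loads the cell with chloride, which leaves to the lumen through the CFTR channel. The uterine epithelium is known to use both routes, and the balance between them sets the volume of luminal fluid over the estrous cycle and at implantation.

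The captured tissue was checked against marker genes. All 8 pan-epithelial markers were tested, and their summed level was between 1406 and 3792 CPM in the *Thra1PV/+* libraries and between 1290 and 3848 CPM in the WT libraries. Stromal markers were high in *Thra1PV/+* library 1 (6550 CPM) and in WT libraries 1 and 2 (6287 and 6273 CPM), against 526 to 2164 CPM in the other 5, and WT library 1 also held 13230 CPM of smooth muscle markers against 131 to 1144 CPM elsewhere. These 3 stroma-rich libraries stand apart from the rest, and values without them, computed over 3 *Thra1PV/+* and 2 WT libraries, are given below as an alternative chosen after seeing the data. Markers of squamous epithelium followed genotype, with 3480 to 5737 CPM in *Thra1PV/+* and 65.4 to 339 CPM in WT endometrium, and 11 of the 14 were called as higher. The transcripts of *Thra* from its PV and WT alleles are counted together and ranged from 45.7 to 127 CPM in *Thra1PV/+* and from 47.4 to 110 CPM in WT libraries.

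Positions of 8 of the 9 genes are given for build GRCm38 with the GENCODE M21 annotation. *Scnn1g* (chromosome 7, 121734479 to 121768475) and *Scnn1b* (chromosome 7, 121865038 to 121918514) lie on the same strand, 96562 bases apart, with 1 annotated gene between them. *Scnn1a*, the alpha subunit gene, lies on chromosome 6 (125320659 to 125344943). *Cftr* (chromosome 6, 18170687 to 18322768), *Prss8* (chromosome 7, 127925716 to 127930104) and *Atp1b1* (chromosome 1, 164437109 to 164458355) each share exon bases with a gene of the opposite strand, *Gm15592*, *Kat8* and *Nme7* respectively. The library kit keeps the strand, but whether counting used it is not given in the sources used here. *Sgk1* lies on chromosome 10 (21882184 to 21999903) and *Slc26a4* on chromosome 12 (31519827 to 31559969).

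The promoters of the neighbouring channel genes *Scnn1g* and *Scnn1b*, and that of *Slc26a4*, are shown because the first pair differed in how their transcripts compared between genotypes and the third varied most between mice. Each line holds the 250 bases before a RefSeq start site (GRCm38.p6), on the strand of the gene. Capitals mark 3 motifs searched on both strands: the nuclear receptor motif AGGTCA, which thyroid hormone receptor dimers bind in pairs, the steroid receptor motif AGAACA, and the GC box GGGCGG.
Scnn1g, chr7:121734229-121734478, plus strand: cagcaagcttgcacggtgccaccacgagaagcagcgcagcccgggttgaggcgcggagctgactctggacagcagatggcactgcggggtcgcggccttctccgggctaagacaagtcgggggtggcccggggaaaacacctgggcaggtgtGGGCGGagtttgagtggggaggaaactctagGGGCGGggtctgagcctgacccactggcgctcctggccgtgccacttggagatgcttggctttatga
Scnn1b, chr7:121864788-121865037, plus strand: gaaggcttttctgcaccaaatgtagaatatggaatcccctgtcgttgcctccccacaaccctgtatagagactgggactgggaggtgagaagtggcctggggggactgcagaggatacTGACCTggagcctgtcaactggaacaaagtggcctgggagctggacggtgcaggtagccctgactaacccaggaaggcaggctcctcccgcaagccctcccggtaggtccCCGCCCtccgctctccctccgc
Slc26a4, chr12:31559985-31560234, minus strand: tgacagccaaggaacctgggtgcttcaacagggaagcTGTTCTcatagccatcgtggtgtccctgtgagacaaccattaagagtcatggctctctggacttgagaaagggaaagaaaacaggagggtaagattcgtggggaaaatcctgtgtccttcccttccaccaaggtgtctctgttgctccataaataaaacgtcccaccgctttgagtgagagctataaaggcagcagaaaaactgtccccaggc
The *Scnn1g* window held 2 GC boxes and neither receptor motif. In the *Scnn1b* window there was 1 nuclear receptor motif, 132 bases before the start, and 1 GC box at 22 bases. That of *Slc26a4* held 1 steroid receptor motif, 213 bases before the start. Among all 32851 mouse promoters of this length, 14.0% held the nuclear receptor motif, 16.1% the steroid receptor motif and 32.7% the GC box, so a match is a description of the letters. Of the 9 genes, 6 had a promoter entry, and the *Cftr* window held 6 GC boxes, some of which share bases. The windows of *Cftr* and *Atp1b1* held no receptor motif. *Sgk1* had 6 windows, some of which held a nuclear or a steroid receptor motif, with at most 3 steroid receptor motifs in a window.

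Between genotypes, no gene of the 9 was called. A call required an at least 2-fold difference with an adjusted p-value not above 0.1 in edgeR's quasi-likelihood fit, and 0.99% of all tested genes met it. At an unadjusted p under 0.05, 2 of the 9 passed, *Scnn1g* toward *Thra1PV/+* and *Atp1b1* toward WT, where 9.77% of all genes did. The libraries of the genotypes did not overlap for 1 of the 9, *Scnn1g*, where 6.04% of all genes showed no overlap. DESeq2 called 1 of the 9, again *Scnn1g*, where it called 3.8% of the genes tested. *Scnn1g* had 2 to 10 counts in the WT libraries, so it passed the filter on low counts through its *Thra1PV/+* libraries. A gene this low in WT could be tested only if it was higher in *Thra1PV/+*, so these results for *Scnn1g* are not independent of the filter. Fitted log2 fold changes of the 9 genes were above 0 for 3 and below 0 for 6, with a median of -0.08 against -0.05 over all tested genes. In bulk tissue, fewer cells of a type cannot be told apart from less RNA per cell.

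**Figure D1:**
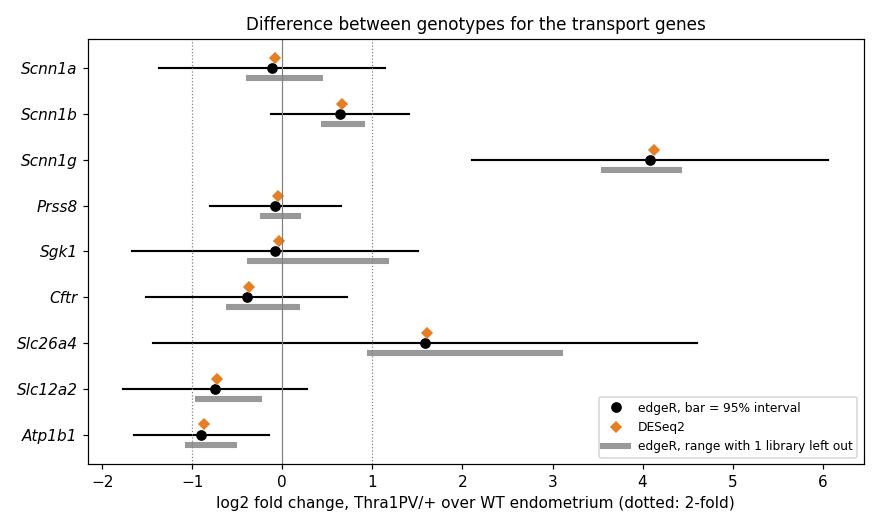
Log2 fold change of each transport gene in *Thra1PV/+* over WT endometrium, with black points and bars for edgeR and its 95% interval, orange diamonds for DESeq2 and gray bars for the range with 1 library left out (4 mice per genotype). The interval of *Scnn1g* (2.11 to 6.06) and that of *Atp1b1* (-1.65 to -0.15) leave out 0, and those of the other genes include it.

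The gamma subunit gene *Scnn1g* was the member with the widest separation of the genotypes. It had 262, 143, 72 and 22 counts in *Thra1PV/+* libraries 1 to 4, which is 4.81, 2.90, 1.47 and 0.385 CPM. In WT libraries 1 to 4 it had 6, 2, 10 and 10 counts, or 0.114, 0.0361, 0.199 and 0.209 CPM. Every *Thra1PV/+* library was above every WT library, though *Thra1PV/+* library 4 was close to the upper WT libraries and the *Thra1PV/+* values spread over 12.5-fold. The means were 2.39 ± 1.91 CPM (SD, n = 4) and 0.140 ± 0.0810 CPM (SD, n = 4). The log2 fold change was 4.08 (standard error 0.86), a fitted 17.0-fold difference, and the adjusted p was 0.114 (edgeR). This missed the threshold of 0.1, so the difference is not a call of the main test. It passed with DESeq2 (log2 fold change 4.12, adjusted p = 2.39e-05), with edgeR after upper quartile normalisation (adjusted p = 0.0969) or by library size alone (adjusted p = 0.0864), and without *Thra1PV/+* library 4 (log2 fold change 4.44, adjusted p = 0.0691). It did not pass with DESeq2 size factors in edgeR (adjusted p = 0.111), robust dispersion (0.124), limma voom with quality weights (log2 fold change 3.20, adjusted p = 0.282) or replicate number as a block (adjusted p = 0.427). Leaving out any 1 of the other libraries gave adjusted p-values of 0.175 to 0.258, and without the 3 stroma-rich libraries the log2 fold change was 2.98 (adjusted p = 0.307). With so few WT counts the size of the fold is uncertain, and on the log2(TPM + 1) scale, which compresses low values, the difference was 0.79 (adjusted p = 0.321 from limma).

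Summed markers of some other cells also differed between the genotypes. The squamous list was higher in all 4 *Thra1PV/+* libraries, as given above, and summed markers of B and plasma cells ranged from 468 to 741 CPM in *Thra1PV/+* against 128 to 246 CPM in WT libraries. Within the *Thra1PV/+* libraries, squamous markers were highest in libraries 2 and 3 (5672 and 5737 CPM) while *Scnn1g* was highest in library 1 (squamous sum 3480 CPM). Their part in the *Scnn1g* difference was not tested. Divided by the pan-epithelial sum, *Scnn1g* still did not overlap, with 3.42, 0.765, 0.424 and 0.149 CPM per 1000 CPM of pan-epithelial markers in *Thra1PV/+* and 0.0870, 0.0280, 0.0517 and 0.0616 in WT libraries.

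The beta subunit gene *Scnn1b* had 57.9, 42.5, 34.5 and 40.3 CPM in *Thra1PV/+* libraries 1 to 4. Its WT libraries had 41.0, 12.4, 30.2 and 28.6 CPM, and WT library 1 lay within the *Thra1PV/+* range. The fitted log2 fold change of 0.64 (standard error 0.34, 95% interval -0.13 to 1.41) had an adjusted p of 0.599 in edgeR's quasi-likelihood test, and it stayed between 0.43 and 0.92 when any 1 library was left out. The means were 43.8 ± 10.01 CPM and 28.1 ± 11.8 CPM (SD, n = 4), and without the stroma-rich libraries the log2 fold change was 0.45 (adjusted p = 0.349). For *Scnn1a*, the alpha subunit gene, *Thra1PV/+* libraries held 26.9, 15.0, 12.03 and 16.3 CPM and WT libraries 22.8, 36.7, 5.25 and 11.1 CPM. The *Thra1PV/+* values all lay inside the WT range, which covered 7.0-fold. The genotypes differed by a log2 fold change of -0.11 (95% interval -1.37 to 1.14, standard error 0.55, edgeR adjusted p = 0.974), and by 0.85 without the stroma-rich libraries (adjusted p = 0.451).

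**Figure D2:**
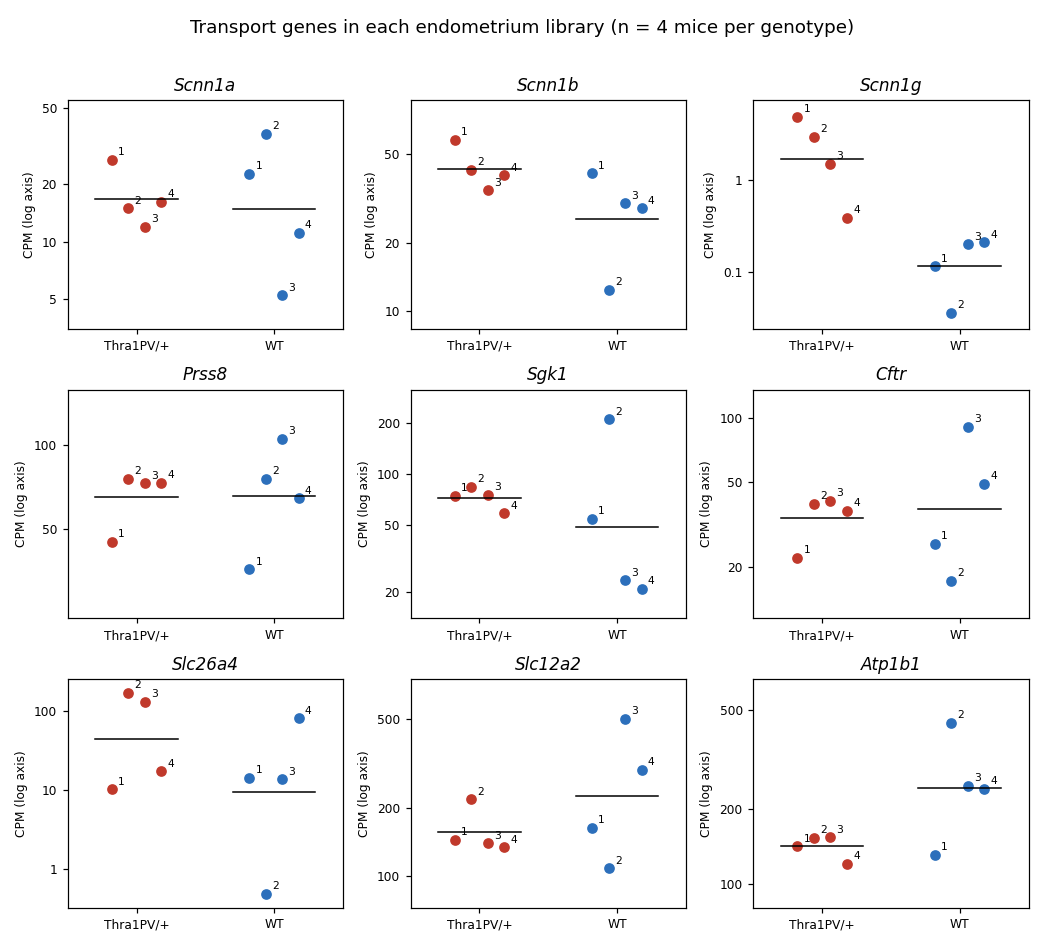
CPM of the 9 transport genes in each library on a log axis whose range differs between panels, with *Thra1PV/+* mice in red, WT mice in blue, the library number beside each point and the geometric mean as a line. The groups are apart for *Scnn1g* alone, and WT library 2 is the highest or lowest of the 8 libraries for 8 of the 9 genes.

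Levels of different genes were compared in TPM, which is per transcript length, in the authors' table that also makes the distribution alike in all libraries. In WT endometrium *Scnn1b* averaged 13.8 ± 6.04 TPM, *Scnn1a* 7.19 ± 5.05 TPM and *Scnn1g* 0.0623 ± 0.0462 TPM (SD, n = 4). The gamma subunit therefore had the lowest transcript level of the channel's subunits. In *Thra1PV/+* endometrium the averages were 21.8 ± 5.56 TPM for *Scnn1b*, 6.14 ± 1.74 TPM for *Scnn1a* and 0.931 ± 0.678 TPM for *Scnn1g* (SD, n = 4). *Scnn1g* made up 4.16%, 4.71%, 2.84% and 0.568% of the summed subunit TPM in *Thra1PV/+* libraries 1 to 4, and 0.146%, 0.0306%, 0.588% and 0.552% in the WT libraries. By this share *Thra1PV/+* library 4 fell within the WT range, and the other *Thra1PV/+* libraries were above it. The WT values of *Scnn1g* rest on 6, 2, 10 and 10 counts, so its share and its ratio to *Scnn1b* are imprecise there. In CPM, *Thra1PV/+* library 4 (0.385 CPM) was above every WT library (at most 0.209 CPM). The ratio of *Scnn1b* to *Scnn1a* was between 3.43 and 3.82 in all 4 *Thra1PV/+* libraries. In WT libraries 1 to 4 it was 2.40, 0.444, 6.39 and 3.31. The ratio of *Scnn1b* to *Scnn1a* was thus narrow in *Thra1PV/+* and wide in WT libraries. That of *Scnn1b* to *Scnn1g* was wide in both, from 15.8 to 136 in *Thra1PV/+* and from 138 to 1005 in WT libraries. These ratios are a description with no test.

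**Figure D3:**
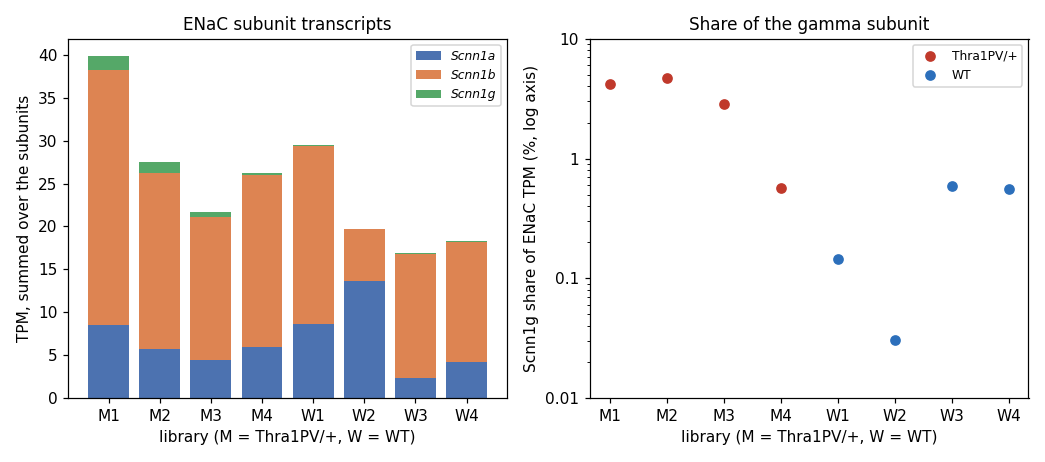
ENaC subunit transcripts in each library as stacked TPM (left, M for *Thra1PV/+* and W for WT) and the *Scnn1g* share of that sum in percent on a log axis (right). *Scnn1b* makes up most of the bar except in WT library 2, where *Scnn1a* holds 69.2%, and the *Scnn1g* share of *Thra1PV/+* library 4 (0.568%) lies within the WT range. The WT shares of *Scnn1g* rest on 2 to 10 counts in a library.

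*Prss8* encodes prostasin, a membrane-anchored protease that takes part in the activation of ENaC. In *Thra1PV/+* libraries 1 to 4 it had 44.8, 75.6, 72.8 and 73.2 CPM, and in WT libraries 35.7, 75.6, 106 and 64.4 CPM. The difference was -0.08 on the log2 scale (95% interval -0.81 to 0.65, standard error 0.32, edgeR adjusted p = 0.967). The *Thra1PV/+* values lay within the WT range, and *Thra1PV/+* library 1, a stroma-rich one, was the lowest of its genotype. Without the stroma-rich libraries the difference was -0.16 (adjusted p = 0.855).

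*Sgk1* encodes a kinase that steroid hormones induce and that keeps ENaC at the cell surface. The *Thra1PV/+* libraries held 74.7, 84.4, 75.8 and 58.6 CPM and were close together. WT libraries 1 to 4 held 54.6, 212, 23.5 and 20.9 CPM, so that 1 library was above and the other 3 below every *Thra1PV/+* library. The means, 73.4 ± 10.8 CPM and 77.6 ± 90.6 CPM (SD, n = 4), hardly differed, and the log2 fold change was -0.08 (standard error 0.69, 95% interval -1.67 to 1.5, adjusted p = 0.984 from edgeR). That value rests on WT library 2, since its removal gave 1.18 (adjusted p = 0.342). Without the 3 stroma-rich libraries, which include WT library 2, it was 1.76 and was called (adjusted p = 0.0311), from 3 *Thra1PV/+* libraries at 58.6 to 84.4 CPM and 2 WT libraries at 20.9 and 23.5 CPM. The other stroma-rich libraries did not share the high value of WT library 2, with 74.7 CPM in *Thra1PV/+* library 1 and 54.6 CPM in WT library 1.

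The chloride channel gene *Cftr* had 22.0, 39.5, 40.9 and 36.8 CPM in *Thra1PV/+* libraries and 25.6, 17.2, 90.9 and 49.3 CPM in WT libraries. In each genotype the stroma-rich libraries had the lowest values. The log2 fold change was -0.40 (standard error 0.49, 95% interval -1.51 to 0.72, adjusted p = 0.857 from edgeR), and -0.80 without the stroma-rich libraries (adjusted p = 0.313). Divided by the pan-epithelial sum of each library, the range of *Cftr* over all 8 libraries narrowed from 5.30-fold to 2.27-fold. The same division widened the range of *Scnn1a* from 7.0-fold to 20.9-fold and that of *Sgk1* from 10.1-fold to 26.9-fold. As transcript levels in TPM, *Cftr* was 0.442, 1.38, 1.85 and 1.22 times *Scnn1a* in *Thra1PV/+* libraries 1 to 4, and 0.502, 0.242, 7.49 and 2.31 times in WT libraries. The stroma-rich libraries of both genotypes were those where *Cftr* lay below *Scnn1a*.

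*Slc26a4* encodes pendrin, which exchanges chloride for bicarbonate or iodide and is best known from the thyroid, the inner ear and the kidney. It varied more between mice than any other member, with 10.2, 171, 131 and 17.4 CPM in *Thra1PV/+* and 14.3, 0.487, 13.8 and 81.5 CPM in WT libraries. High and low libraries were found in both genotypes, over a 351-fold range. The log2 fold change of 1.58 (standard error 1.32, 95% interval -1.43 to 4.6, adjusted p = 0.765 from edgeR) moved between 0.94 and 3.11 when any 1 library was left out and was 1.20 without the stroma-rich libraries (adjusted p = 0.755). An interval this wide holds both no difference and a difference of many fold.

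*Slc12a2* encodes NKCC1, the basolateral cotransporter that loads chloride for secretion. Its *Thra1PV/+* libraries held 145, 219, 140 and 134 CPM and its WT libraries 164, 108, 501 and 297 CPM. WT libraries 3 and 4 were above every *Thra1PV/+* library, and WT library 2 was below them all. The log2 fold change was -0.75 (standard error 0.44, 95% interval -1.76 to 0.27, adjusted p = 0.649 from edgeR), and -1.24 without the stroma-rich libraries (adjusted p = 0.218). Per 1000 CPM of pan-epithelial markers it had 103, 57.7, 40.3 and 52.1 CPM in *Thra1PV/+* and 124, 84.0, 130 and 87.3 CPM in WT libraries, where only *Thra1PV/+* library 1 reached into the WT range.

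*Atp1b1* encodes the beta 1 subunit of the sodium pump, which the catalytic subunit needs to reach the membrane, and it had the highest TPM of the 9 genes in every library. It had 142, 153, 154 and 121 CPM in *Thra1PV/+* and 131, 444, 248 and 241 CPM in WT libraries. All but WT library 1 of the WT libraries were above the *Thra1PV/+* libraries, and that library, with the smooth muscle markers, was among them. The log2 fold change was -0.90 (standard error 0.33, 95% interval -1.65 to -0.15, unadjusted p = 0.0239), a fitted 1.87-fold higher level in WT, but the adjusted p of 0.409 in edgeR's quasi-likelihood test was far from the threshold. It kept its sign when any 1 library was left out, between -1.08 and -0.51, the smallest difference being without WT library 2, and was -0.74 without the stroma-rich libraries (adjusted p = 0.172).

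By mean TPM over the 8 libraries the genes followed the order *Atp1b1* (124 TPM), *Prss8* (51.6 TPM), *Sgk1* (47.7 TPM), *Slc12a2* (47.1 TPM), *Slc26a4* (25.4 TPM), *Scnn1b* (17.8 TPM), *Cftr* (7.67 TPM), *Scnn1a* (6.66 TPM) and *Scnn1g* (0.496 TPM). The ranges of neighbours in this order overlapped, apart from the last pair, where *Scnn1g* reached at most 1.66 TPM and *Scnn1a* had at least 2.27 TPM. The order was not the same in both genotypes. *Slc26a4* averaged 38.2 TPM in *Thra1PV/+*, above *Slc12a2* (36.8 TPM), and 12.7 TPM in WT endometrium, below *Scnn1b* (13.8 TPM). *Slc12a2* averaged 57.5 TPM in WT endometrium and was second there.

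In CPM, the WT libraries differed more among themselves than the *Thra1PV/+* libraries did for most of the 9 genes. The SD of log2 CPM was larger in WT than in *Thra1PV/+* libraries for 8 of the 9 genes (88.9%), with *Scnn1g* as the exception, against 66.0% of all tested genes. The median SD of the 9 genes was 0.36 in *Thra1PV/+* and 0.97 in WT endometrium on the log2 scale, and over all tested genes 0.35 and 0.46. For *Sgk1* the SDs were 0.22 and 1.54. Divided by the pan-epithelial sum, *Thra1PV/+* libraries had the wider range for *Scnn1b* (4.14-fold against 3.98-fold), *Scnn1g* (22.9-fold against 3.11-fold) and *Slc12a2* (2.56-fold against 1.55-fold). For all the other members the WT range stayed the wider one. WT libraries 1 and 2 were stroma-rich, and the part of the captured tissue in the spread was not tested. WT library 2 was the highest of the 8 libraries for *Scnn1a*, *Sgk1* and *Atp1b1* and the lowest for *Scnn1b*, *Scnn1g*, *Cftr*, *Slc26a4* and *Slc12a2*. It was thus an extreme for 88.9% of the 9 genes, against 28.0% of all tested genes. WT library 1, with nearly the same stromal sum, was an extreme for 1 of the 9 and for 37.1% of all tested genes, and WT library 3 for 4 of the 9 and 37.6%.

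**Figure D4:**
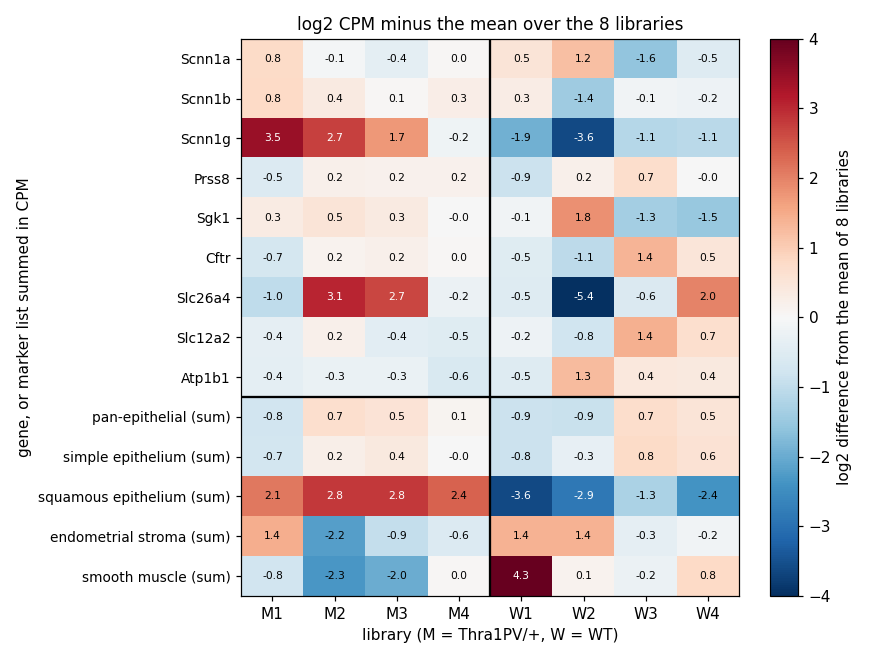
Log2 CPM of each transport gene, and below the line of the summed CPM of 5 marker lists, minus the mean over the 8 libraries (M for *Thra1PV/+*, W for WT, red above and blue below the mean). Of the transport genes, *Scnn1a* and *Sgk1* are lower and *Cftr* and *Slc12a2* higher in W3 and W4 than in W1 and W2, whereas the squamous markers divide the genotypes. *Scnn1b*, *Prss8*, *Slc26a4* and *Atp1b1* do not divide the WT libraries in this way.

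Other genes of the same transport systems were compared from 5 lists of 68 genes, of which 60 were tested. None was called by edgeR, where 0.99% of all tested genes were. At an unadjusted p under 0.05, 8 passed (5 toward *Thra1PV/+* and 3 toward WT), where 9.77% of all tested genes did. DESeq2 called 1, where it called 3.8% of the genes tested. The median log2 fold change of the 60 genes was -0.10, against -0.05 over all tested genes. The untested genes had at most 9 counts in any library, among them *Slc12a1* and *Slc12a3*, the kidney cotransporters, and *Slc26a3*.

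Among 17 tested regulators of ENaC, 1 passed an unadjusted p under 0.05, where 9.77% of all tested genes did. *Tsc22d3*, a glucocorticoid-induced gene that also holds ENaC at the membrane, had 75.3, 21.7, 41.0 and 49 CPM in *Thra1PV/+* and 151, 217, 54.1 and 45.3 CPM in WT libraries, a log2 fold change of -1.32 (adjusted p = 0.505 from edgeR). Its highest values in either genotype came from the stroma-rich libraries, and without them the log2 fold change was -0.38. The glucocorticoid receptor gene *Nr3c1* (log2 fold change 0.32), the deubiquitinase gene *Usp2* (-1.21) and the protease inhibitor gene *Spint1* (0.51) had adjusted p-values of 0.667, 0.685 and 0.715. Without the stroma-rich libraries that of *Usp2* was -0.0027. *Spint2*, an inhibitor of the proteases that activate ENaC and the regulator with the highest CPM, averaged 670 and 680 CPM in the genotypes, a log2 fold change of -0.02. *Hsd11b2*, named here after its values were seen, encodes the enzyme that keeps glucocorticoids from the mineralocorticoid receptor. It had 218, 2.27, 1.84 and 4.13 CPM in *Thra1PV/+* and 104, 308, 57.4 and 28.2 CPM in WT libraries. Apart from the stroma-rich *Thra1PV/+* library 1, the *Thra1PV/+* libraries were below every WT library. The log2 fold change over all libraries came to -1.14 (edgeR adjusted p = 0.872), and without *Thra1PV/+* library 1 it was -5.44 and was called (adjusted p = 0.0843). Without the 3 stroma-rich libraries it was -3.92 and was also called (adjusted p = 0.0315). No other alternative called it, and without WT library 2 it came to -0.15 (adjusted p = 0.997).

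Of 17 tested chloride and bicarbonate transporters and their activators, 3 passed an unadjusted p under 0.05, all toward *Thra1PV/+*, where 9.77% of all tested genes passed. *Clca2* (log2 fold change 1.16) and *Clca3a1* (1.32) encode regulators of calcium-activated chloride channels, and *Vipr1* (0.69) a receptor that raises the cyclic AMP that opens CFTR. Their adjusted p-values were 0.416, 0.501 and 0.511. The *Clca* genes are similar in sequence, and how reads were divided between them cannot be seen in the counts. *Clca1*, the most abundant of this list, ranged from 591 to 3414 CPM in *Thra1PV/+* and from 365 to 6928 CPM in WT libraries, and its log2 fold change was -0.04. It was lowest in the stroma-rich libraries, as *Cftr* was. *Slc4a7*, a sodium bicarbonate cotransporter gene, had a log2 fold change of -0.38 (adjusted p = 0.669).

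Among 6 tested relatives of *Slc12a2*, *Slc12a5*, a potassium chloride cotransporter known from neurons, had an unadjusted p of 0.0185 and a log2 fold change of -1.82 at levels of at most 1.35 CPM (adjusted p = 0.378 from edgeR). *Slc12a7*, the most abundant of them, had 43.8 to 52.8 CPM in *Thra1PV/+* and 30.8 to 48.7 CPM in WT libraries, a log2 fold change of 0.34. The log2 fold changes of *Slc12a4* (-0.35) and *Slc12a9* (-0.12) turned in sign without the stroma-rich libraries (0.22 and 0.09). Of the 6 sodium proton exchangers and scaffold genes, *Slc9a4* had 1.61, 3.65, 2.82 and 0.665 CPM in *Thra1PV/+* and 0, 0.0361, 0.159 and 0.941 CPM in WT libraries (unadjusted p = 0.0419, adjusted p = 0.491). *Slc9a3r1*, the scaffold protein gene NHERF1 whose product binds CFTR, had a log2 fold change of 0.40 and *Slc9a3r2* one of -0.41, neither past the threshold.

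The sodium pump list, which also holds the related proton pumps and the small FXYD regulators, had 3 tested genes above and 11 below 0. Its median log2 fold change was -0.66. Of all 18174 tested genes, 10331 were below 0, with a median of -0.05. *Atp12a*, the non-gastric proton pump, had a log2 fold change of -4.82 that came from WT library 1 (91.4 CPM, against at most 3.01 CPM elsewhere), and without that library it was -0.89. *Fxyd5*, a small regulator of the pump, had a log2 fold change of 0.56 (adjusted p = 0.563).

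**Figure D5:**
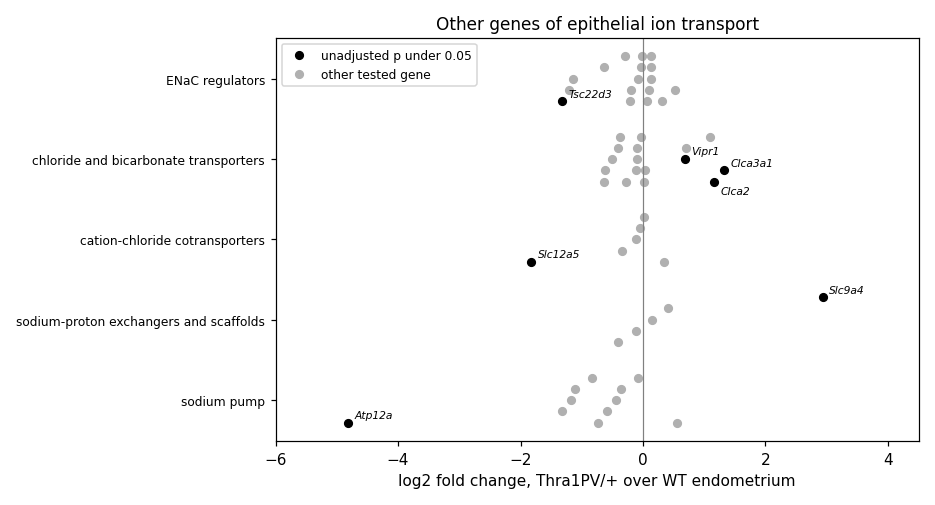
Log2 fold change in *Thra1PV/+* over WT endometrium for the other tested transport genes reported here, 1 point a gene in rows by list, with those at an unadjusted p under 0.05 in black and named. Points lie on both sides of 0 in every row, and *Atp12a* (-4.82) and *Slc9a4* (2.95) lie farthest from it.

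The genes whose log2 CPM was most like that of a transport gene over the 8 libraries were sought among 12124 genes of sufficient level. For *Scnn1a* they were *3000002C10Rik* (Pearson r 0.976), *Dph7* (0.971) and *Id4* (0.97). For *Cftr* they were *1700123O20Rik* (0.985), *Ost4* (0.985) and *Fut9* (0.983), and for *Slc26a4* *Siah2* (0.993), *Ly6a* (0.991) and *Slfn8* (0.983). These values are a description over 8 libraries whose stromal and epithelial content differs, and the part of that content in them was not tested.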

How the data were processed

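Endometrium of 4 *Thra1PV/+* and 4 WT mice was profiled by stranded mRNA sequencing. The authors trimmed reads with Trimmomatic, ran Salmon for genome mm10 and deposited estimated counts per gene, without normalization. The version of Salmon and the annotation are not given in the sources used here. The authors also deposited TPM values, whose ranked values lay within 0.2905 TPM of each other across libraries, the form of quantile normalization, and these served for comparing levels between genes and for 2 of the alternatives. A further column of per-sample values there (1 in number) was not used.

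Estimated counts were rounded and tested with edgeR 4.0.16 in R 4.3.3 (filterByExpr with a minimum count of 10 and a minimum total of 15, TMM, quasi-likelihood test, genotype as the only term, Benjamini-Hochberg adjustment over 18174 genes). A call needed an at least 2-fold difference and an adjusted p not above 0.1. CPM values are after TMM. Standard errors and intervals were derived from F statistics. DESeq2 1.42.0, which the authors used, and limma 3.58.1 (log2 of TPM plus 1 or 0.1, and voom) were alternatives, beside other normalizations and filters, a replicate block and each library left out. P-values set the genotype difference against the spread between the libraries of these mice, whose stromal content differed.

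The members and gene lists were chosen with earlier results of these data known. Named are all 9 members, of each of 5 transport lists any called gene, up to 4 of lowest unadjusted p and the most abundant, and 3 genes most like *Scnn1a*, *Cftr* and *Slc26a4* (mean log2 CPM of at least 2). Some genes of these lists are counted but not reported here. Cell types were read from 14 marker lists.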

Additional observations from a re-analysis of the deposited data

Results flagged for a closer look

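In 88 groups of 4 libraries (the transport and named genes and the marker sums), a single library was set against Dixon's 95% critical value, which chance passes in about 4.4 of 88, and 4 passed. *Prss8* had a log2 CPM of 5.49 in *Thra1PV/+* library 1, where the other *Thra1PV/+* libraries were at 6.19 to 6.24. *Slc12a2* had 7.77 in *Thra1PV/+* library 2, where the others were at 7.07 to 7.18. *Hsd11b2*, added to the named genes after its values were seen, had 7.77 in *Thra1PV/+* library 1, where the others were at 0.91 to 2.06. The log2 summed CPM of B and plasma cell markers was 7.94 in WT library 4 and 7.0 to 7.14 in the other WT libraries. The causes were not tested.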

How the results depend on the processing

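The number of the 9 transport genes called, 0, became 1 with DESeq2, upper quartile normalisation or library size alone (*Scnn1g* each time), 1 without the 3 stroma-rich libraries (*Sgk1*) and 2 at an unadjusted p under 0.05. With each library left out it ranged from 0 to 1 (*Scnn1g*, without *Thra1PV/+* library 4). Of the wider genes, 0 called became 1 with DESeq2, 1 without the stroma-rich libraries (*Hsd11b2*) and 8 at an unadjusted p under 0.05, and with 1 library left out from 0 to 1 (1 without *Thra1PV/+* library 1, where it was *Hsd11b2*, and 1 without *Thra1PV/+* library 2). The causes of these changes were not tested.

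Signs turned for 4 members, *Scnn1a* (log2 fold change -0.11), *Prss8* (-0.08), *Sgk1* (-0.08) and *Cftr* (-0.40). *Scnn1a* came to 0.19 with replicate number as a block, 0.0338 on log2(TPM + 0.1), 0.85 without the stroma-rich libraries and -0.41 to 0.45 with 1 library left out. *Prss8* came to 0.0133 by library size, 0.11 with limma voom, 0.000507 and 0.00172 on log2(TPM + 1) and log2(TPM + 0.1), and -0.25 to 0.21 with 1 library left out. *Sgk1* came to 0.62 with the block, 0.79 with voom, 0.58 and 0.61 on the TPM scales, 1.76 without the stroma-rich libraries and -0.40 to 1.18 with 1 left out, and *Cftr* to -0.63 to 0.20 (the last without WT library 3). *Slc12a4* (0.22 without the stroma-rich libraries, -0.59 to 0.0770 with 1 left out) and *Slc12a9* (0.0866, and -0.26 to 0.0152) also turned. Without the stroma-rich libraries *Tsc22d3* came to -0.38, *Usp2* to -0.0027, *Slc12a5* to -0.96 and *Atp12a* to -1.11. *Scnn1b*, *Scnn1g*, *Slc26a4*, *Slc12a2* and *Atp1b1* kept their sign in every alternative that gave a value. With at least 10 counts in every library *Scnn1g* could not be fitted.

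Deviations of same-numbered libraries of the genotypes had correlations of 0.27, -0.44, 0.34 and -0.16, and only library 3 matched its own number best. No pairing by replicate number was seen, though so few libraries cannot exclude one. The block gave 82 calls over all genes against 180, and 0 among the 9. DESeq2 called 793 of 30306 genes, a wider set than the 18174 that edgeR tested (71.5% higher in *Thra1PV/+*, against 93.3% in edgeR). Over the genes that edgeR tested, DESeq2 called 690. Voom called 311 genes (81.4% higher). With edgeR, 81 were called with 10 counts in every library and 81 to 167 with 1 library left out.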
